A study of Homo sapiens with 9 samples.

Results

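The alpha-, gamma- and delta-tubulins were followed in MDA-MB-231, an established line of human breast cancer cells. They were taken as every array probe set annotated to TUBA1A, TUBA1B, TUBA1C, TUBA4A, TUBA8, TUBG1, TUBG2 or TUBD1, which gave 14 probe sets for 8 genes, of 22215 human probe sets on the array. Each of the 14 names a single gene. TUBA1B has 5 of them, TUBA1C and TUBD1 have 2 each, and the other 5 genes have 1 each. The study set 2 taxane-resistant lines beside sensitive cells of the same origin. Docetaxel-resistant cells were kept with 1 µM verapamil and 2 nM docetaxel, paclitaxel-resistant cells with 1 µM verapamil and 7 nM paclitaxel, and sensitive cells with 1 µM verapamil and neither drug. All 3 groups thus shared verapamil, which blocks calcium channels and also the drug efflux pump P-glycoprotein. Each group has 3 arrays, made from total RNA of separate passages. Each resistance is 1 line, so errors and p-values measure the spread among passages, and drug in the medium cannot be told apart from selected line.

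Microtubules are hollow polymers of alpha- and beta-tubulin dimers, and taxanes bind the beta subunit inside the polymer and stabilize it. The human genome holds several alpha-tubulin genes that encode very similar proteins, and cells differ in the mix they use. Gamma-tubulin does not build the wall of the microtubule: it sits in a ring complex that starts new microtubules, mainly at the centrosome. Delta-tubulin is a rarer relative that is needed for the triplet microtubules of centrioles.

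The values are deposited probe set intensities on a linear scale. Differences are between means of log2(intensity + 16) after quantile normalization of the arrays, and a probe set is called where limma's moderated test gave an adjusted p below 0.05 over all 22215 human probe sets. The offset of 16 understates differences that start from a low intensity. Intensities of different probe sets are not compared with each other, because probes differ in brightness. The lowest array median was 33.7 and the highest 43.9. An intensity under 16 was read for 24.0% to 27.0% of the human probe sets, depending on the array.

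Of the epithelial markers, the keratins KRT8, KRT18 and KRT19 averaged 999, 3325 and 1618 in docetaxel-resistant, 1061, 3154 and 1428 in paclitaxel-resistant and 994, 3640 and 1519 in sensitive cells. The epithelial adhesion molecule EPCAM averaged only 14.8, 14.3 and 22.1 in the docetaxel-resistant, paclitaxel-resistant and sensitive cells. In the same order CDH1 averaged 61, 62.8 and 83.3 and ESRP1 19.4, 18.2 and 16.2. None of EPCAM, CDH1 and ESRP1 was called in either comparison with sensitive cells. The epithelial label thus rests on keratins here. Another keratin of the list, KRT7, averaged 665 in docetaxel-resistant, 806 in paclitaxel-resistant and 424 in sensitive cells and rose in both lines, by 0.55 (limma adjusted p = 0.0355) and 0.87 (limma adjusted p = 0.00301). The 3' minus 5' log2 difference of the GAPDH control ran from 0.0067 to 0.13 on docetaxel-resistant, 0.094 to 0.20 on paclitaxel-resistant and 0.014 to 0.039 on sensitive arrays. That of the ACTB control ran from -0.15 to -0.11 on docetaxel-resistant, -0.13 to 0.17 on paclitaxel-resistant and -0.26 to -0.017 on sensitive arrays. The spiked bioC control read 250 on the array of sensitive replicate 3 and 72.9 to 105 on the others.

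Each resistant line was set against the sensitive cells. In both comparisons TUBA4A was the member that fell, while the other 13 probe sets, those of TUBA1A, TUBA1B, TUBA1C, TUBA8, TUBG1, TUBG2 and TUBD1, did not pass the test. No member rose, against 9.34% of all human probe sets in the docetaxel and 9.21% in the paclitaxel comparison. The 1 of 14 called lower compares with 8.32% of all human probe sets in the docetaxel and 9.37% in the paclitaxel comparison, so the share of the members called lower was near the background. At an unadjusted p below 0.05 there were 4 member probe sets in the docetaxel comparison (29.5% of all probe sets) and 1 in the paclitaxel comparison (29.8%). The docetaxel comparison called 17.7% of all probe sets in either direction and the paclitaxel comparison 18.6%. The median difference over the 14 probe sets was -0.20 in the docetaxel and -0.12 in the paclitaxel comparison, against -0.046 and -0.026 over all human probe sets. In the moderated F test over the 3 groups TUBA4A passed (adjusted p = 0.000163) and the others did not, against 20.5% of all probe sets.

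**Figure D1:**
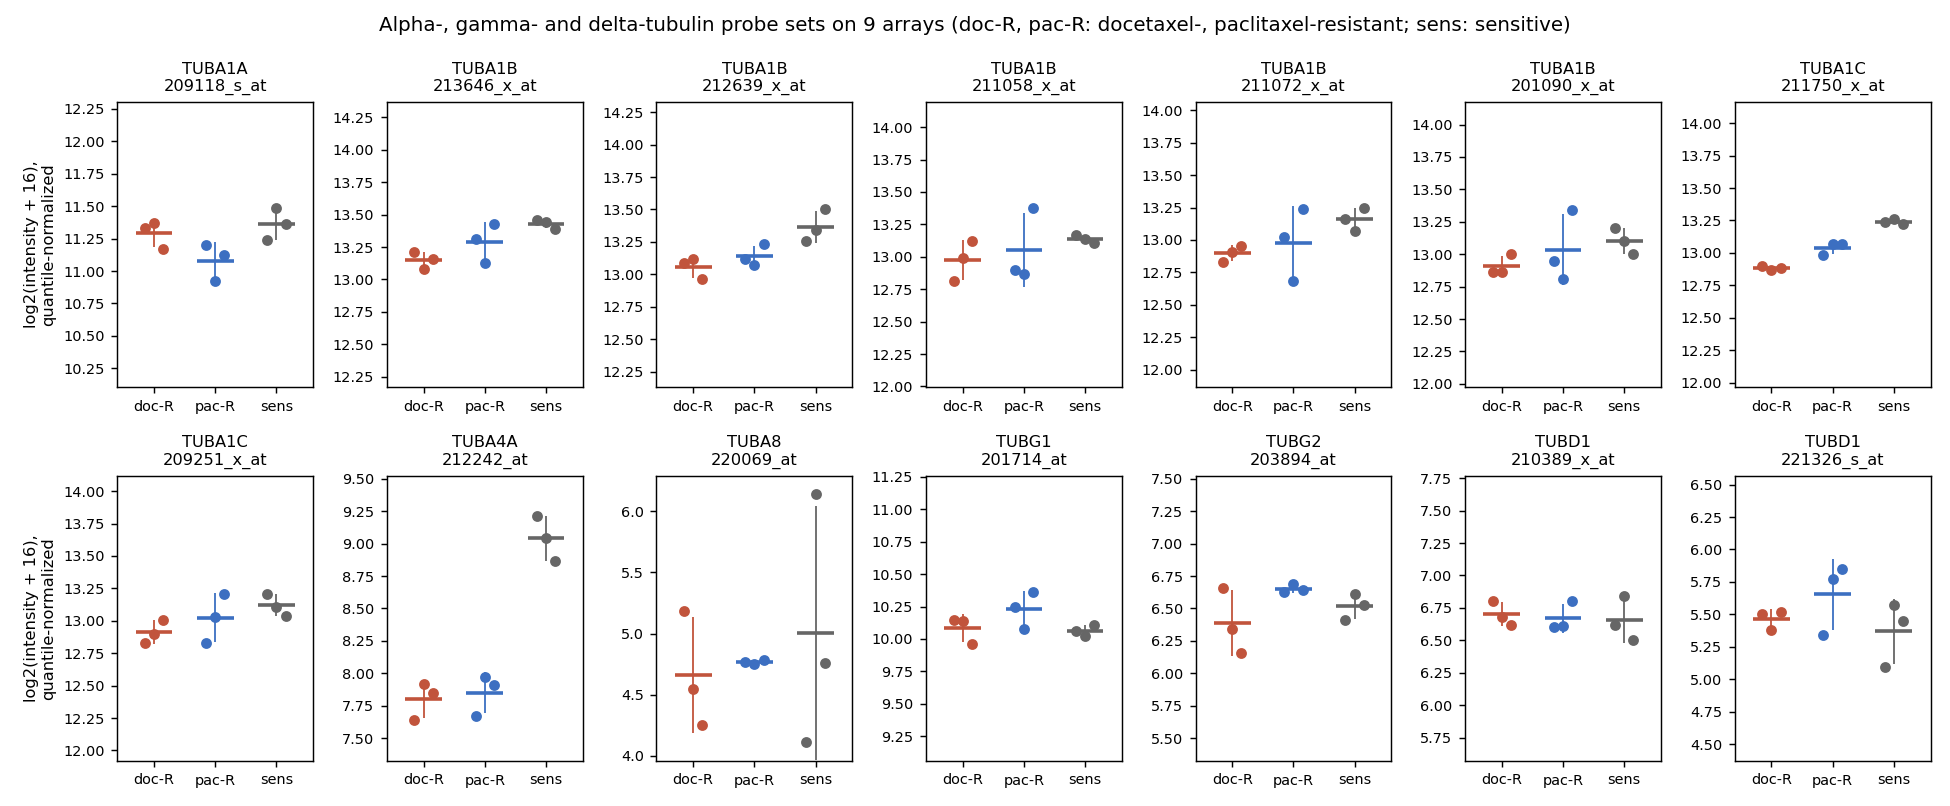
Each panel plots 1 tubulin probe set, with log2(intensity + 16) after quantile normalization on the vertical axis and the docetaxel-resistant, paclitaxel-resistant and sensitive groups from left to right. Points are single arrays in the order of replicates 1 to 3, thick bars are group means and thin lines are 1 SD. Panels cover about the same height in log2 units around different levels, with TUBA8 slightly taller. In TUBA4A the resistant arrays all lie below the sensitive ones, and in TUBA8 the sensitive arrays spread widely.

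TUBA4A encodes an alpha-tubulin that is abundant in neurons and platelets and, unlike the TUBA1 genes, does not encode the tyrosine at the end of the alpha-tubulin tail. Its probe set 212242_at read 177, 247 and 248 in docetaxel-resistant, 205, 215 and 212 in paclitaxel-resistant and 630, 434 and 457 in sensitive cells. All 6 resistant arrays thus lay below all 3 sensitive arrays, and the resistant groups overlapped each other. The means were 224 ± 40.7 in docetaxel-resistant, 211 ± 5.36 in paclitaxel-resistant and 507 ± 107 in sensitive cells (SD, n = 3 each). TUBA4A fell by 1.24 ± 0.15 on the log2 scale in the docetaxel-resistant line (SE, 95% interval -1.56 to -0.91, limma adjusted p = 0.00017), which is 2.35-fold. In the paclitaxel-resistant line TUBA4A fell by 1.19 ± 0.15 (interval -1.51 to -0.87, limma adjusted p = 0.000214), or 2.28-fold. Both comparisons use the same 3 sensitive arrays, so the values of the lines are not independent of each other. A drop as large or larger was seen in 255 of the 22215 probe sets (1.15%) in the docetaxel comparison and in 313 (1.41%) in the paclitaxel comparison. In bulk RNA, fewer cells that express the gene and less of its RNA per cell cannot be told apart. The call held under every alternative run, with adjusted p from 8.07e-05 to 0.00268 in the docetaxel and from 0.000108 to 0.00298 in the paclitaxel comparison.

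Between the resistant lines TUBA4A differed by 0.046 (paclitaxel- minus docetaxel-resistant, interval -0.27 to 0.37, limma adjusted p = 0.962), so a difference of more than 0.37 in either direction lies outside the interval. Since TUBA4A is known from platelets and neurons, markers of those cells were read beside it. The 5 platelet markers, of which PF4 was under 16 on every array, summed to 106 to 115 in docetaxel-resistant, 102 to 126 in paclitaxel-resistant and 110 to 115 in sensitive cells. The 5 neuronal markers summed to 119 to 145 in docetaxel-resistant, 108 to 143 in paclitaxel-resistant and 126 to 149 in sensitive cells. None of the 10 was called in either comparison, and the groups overlapped in both sums. Within the neuronal list, however, the synaptic genes SNAP25 and SYT1 had normalized values on all resistant arrays below the sensitive ones, at low intensities. Their docetaxel differences were -0.39 and -0.35 and their paclitaxel differences -0.33 and -0.31, with limma adjusted p from 0.0895 to 0.148. Of all probe sets, 18.9% were separated downward in this way on docetaxel-resistant arrays and 17.2% on paclitaxel-resistant arrays. The other neuronal markers, NEFL (docetaxel 0.13, paclitaxel 0.22), ELAVL4 (-0.028, -0.082) and MAP2 (0.042, -0.049), overlapped with sensitive cells. Called genes stood in other marker lists, the keratin KRT7 of the epithelial list among them. The 5 mesenchymal markers summed to 5567 to 5848 in docetaxel-resistant, 6668 to 7106 in paclitaxel-resistant and 9556 to 11901 in sensitive cells. The intermediate filament gene VIM and the matrix gene FN1 were the called ones of that list, both lower in both lines. The 4 measured melanocytic markers summed to 343 to 443 in docetaxel-resistant, 328 to 468 in paclitaxel-resistant and 178 to 208 in sensitive cells, with the transcription factor MITF as the called gene, while MLANA, PMEL and TYR were not called. The 5 luminal markers, with PGR under 16 on every array, summed to 177 to 219 in docetaxel-resistant, 342 to 419 in paclitaxel-resistant and 146 to 167 in sensitive cells. FOXA1 rose in both lines and TFF1 in the paclitaxel-resistant line. FOXA1 was low throughout, at means of 22.1 in docetaxel-resistant, 28.2 in paclitaxel-resistant and 5.74 in sensitive cells, where it was under 16 on every array. The 5 fibroblast markers, with LUM under 16 on every array, summed to 253 to 303 in docetaxel-resistant, 234 to 325 in paclitaxel-resistant and 206 to 225 in sensitive cells, and PDGFRB was the one that rose. The part of these markers in the fall of TUBA4A was not tested.

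The upstream windows of the alpha-tubulin genes are shown to set the gene that fell beside its close relatives. RefSeq (GRCh38.p14) had a window for all 8 members, and the 250 bases before the start site were used. Capitals mark matches to TATAA (the TATA element), CCAAT (a box named for its letters) and GGGCGG (the GC box) on either strand, and adjacent or overlapping matches run together. The windows are TUBA4A at chr2:219253919-219254168 (minus strand), TUBA1A at chr12:49189081-49189330 (minus strand), TUBA1B at chr12:49131396-49131645 (minus strand) and, for TUBA1C, the third of 3 listed starts at chr12:49264832-49265081 (plus strand).
TUBA4A: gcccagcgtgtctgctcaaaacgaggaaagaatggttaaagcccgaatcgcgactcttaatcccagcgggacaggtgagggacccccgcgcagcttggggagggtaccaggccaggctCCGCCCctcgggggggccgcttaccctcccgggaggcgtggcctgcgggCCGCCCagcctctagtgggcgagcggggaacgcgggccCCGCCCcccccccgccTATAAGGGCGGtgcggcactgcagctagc
TUBA1A: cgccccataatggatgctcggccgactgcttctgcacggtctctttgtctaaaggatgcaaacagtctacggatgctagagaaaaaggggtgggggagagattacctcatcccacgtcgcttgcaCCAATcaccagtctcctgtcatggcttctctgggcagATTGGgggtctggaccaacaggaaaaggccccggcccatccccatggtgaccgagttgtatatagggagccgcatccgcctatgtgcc
TUBA1B: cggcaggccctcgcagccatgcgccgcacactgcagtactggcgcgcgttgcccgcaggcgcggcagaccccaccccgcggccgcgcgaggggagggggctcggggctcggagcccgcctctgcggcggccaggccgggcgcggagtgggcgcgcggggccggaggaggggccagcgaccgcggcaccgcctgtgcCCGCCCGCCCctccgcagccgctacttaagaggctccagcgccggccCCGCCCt
TUBA1C: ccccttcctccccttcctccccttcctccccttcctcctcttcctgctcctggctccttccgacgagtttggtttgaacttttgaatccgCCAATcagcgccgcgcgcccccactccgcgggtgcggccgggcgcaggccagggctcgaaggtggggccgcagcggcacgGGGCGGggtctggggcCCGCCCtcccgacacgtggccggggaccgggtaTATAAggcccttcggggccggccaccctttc
The TUBA4A window holds 1 TATAA, from base 29 to base 25 before the start, and 4 matches to GGGCGG, and no CCAAT. TUBA1B has 3 matches to GGGCGG, 2 of them overlapping, and neither TATAA nor CCAAT. TUBA1A has 2 matches to CCAAT and neither other motif as spelled here. Its window does read tatata shortly before the start, a TATA-like stretch that the string TATAA does not match. The TUBA1C window shown has 1 TATAA, 1 CCAAT and 2 GGGCGG. This TUBA1C start was chosen for display because of its TATAA match, and the windows of its first and second starts each hold 1 CCAAT and neither other motif. Among the windows of the other members, TUBG1 and TUBG2 each hold 1 CCAAT, TUBG1 and TUBA8 hold 1 and 2 GGGCGG, and TUBD1 holds none of the 3 motifs. Over all 35116 windows of this length, 18.9% hold TATAA, 32.0% CCAAT and 42.6% GGGCGG. These matches describe letters in a window and are not shown to be used sites.

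On chromosome 2, STK16, a serine/threonine kinase gene, precedes TUBA4A among the measured genes, and TUBA4B, a further alpha-tubulin-like gene, follows it. The RefSeq intervals of both overlap that of TUBA4A. STK16 read 112, 146 and 123 in docetaxel-resistant, 95, 76.9 and 107 in paclitaxel-resistant and 192, 197 and 174 in sensitive cells, with every resistant array below every sensitive one. STK16 fell by 0.68 ± 0.17 in the docetaxel-resistant line (limma adjusted p = 0.0178) and fell by 0.94 ± 0.17 in the paclitaxel-resistant line (limma adjusted p = 0.00267). The docetaxel call of STK16 ended without docetaxel-resistant replicate 3 or sensitive replicate 2 (adjusted p up to 0.0778). TUBA4B stood at -0.41 ± 0.14 in the docetaxel (adjusted p = 0.0676) and -0.35 ± 0.14 in the paclitaxel comparison (adjusted p = 0.123), not called. Of the 5 measured genes on each side, STK16 was the only one called in either comparison, so 1 of the 10 neighbours was called lower, a share near the 9.80% of all genes in the docetaxel and 10.4% in the paclitaxel comparison. The remaining neighbours included the autophagy gene ATG9A at -0.45 and -0.42 and the co-chaperone gene DNAJB2 at -0.36 and -0.49 in the docetaxel and paclitaxel comparisons, neither of them called.

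**Figure D2:**
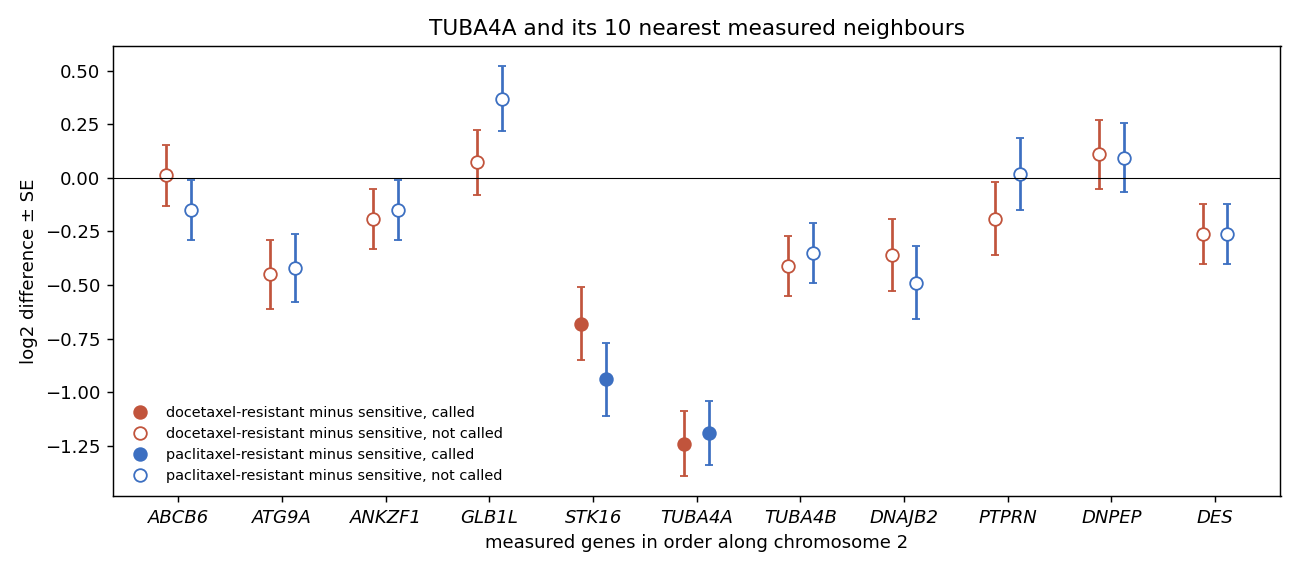
The plot gives the log2 difference ± SE (vertical axis) of TUBA4A and the 5 measured genes on each side of it in chromosomal order (horizontal axis). Red is docetaxel-resistant and blue is paclitaxel-resistant, each minus sensitive, and filled points are called. TUBA4A and STK16 are the called genes, and the 9 others lie between -0.49 and 0.37.

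By the root mean square difference of centred log2 values over the 9 arrays, the genes most like TUBA4A were NLRP2 (0.10), MRPS16 (0.12), HSD17B10 (0.14), TFPT (0.14) and AKR1C2 (0.14). MRPS16, a mitochondrial ribosomal protein gene, averaged 324 in docetaxel-resistant, 277 in paclitaxel-resistant and 617 in sensitive cells. HSD17B10, a mitochondrial dehydrogenase gene, averaged 382 in docetaxel-resistant, 372 in paclitaxel-resistant and 978 in sensitive cells. NLRP2 was low throughout, with means of 5.11 in docetaxel-resistant, 6.39 in paclitaxel-resistant and 34.3 in sensitive cells, where the offset compresses its difference. These genes lie on chromosomes 10, 19 and X, and the likeness describes 9 arrays that share 3 group means.

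TUBA1A, TUBA1B and TUBA1C lie together on chromosome 12 and encode the alpha-tubulins of most dividing cells. Their 8 probe sets include 7 of the types _x_at, whose probes can match other transcripts, and 1 of the type _s_at, which is shared by related transcripts, so the readings of these near-identical genes are not separate measurements. All 8 had lower means in docetaxel-resistant than in sensitive cells, with differences from -0.36 to -0.075 and a median of -0.24. In the paclitaxel comparison all 8 were again below 0, from -0.28 to -0.066 with a median of -0.16. None of these differences was called, and of all probe sets 56.5% lay below 0 in the docetaxel and 53.7% in the paclitaxel comparison. In the docetaxel comparison 5 of the 8 had normalized values on resistant arrays that all lay below the sensitive ones, against 18.9% of all probe sets, and in the paclitaxel comparison 3 of 8, against 17.2%.

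The probe set nearest to a call was 211750_x_at of TUBA1C. It read 7364, 8070 and 7569 in docetaxel-resistant, 8146, 8152 and 8050 in paclitaxel-resistant and 10506, 9394 and 10457 in sensitive cells, so both resistant groups lay wholly below the sensitive one. Its difference was -0.36 ± 0.12 in the docetaxel comparison (interval -0.61 to -0.10, limma adjusted p = 0.0545). This side of the threshold depended on the processing: 6 of 19 alternatives called it lower, among them 1 row per gene from the highest-mean probe set (adjusted p = 0.0459, against 0.0872 and no call from the mean of the probe sets), no between-array normalization (adjusted p = 0.0447) and an offset of 64 (adjusted p = 0.00181). Leaving out any 1 array kept it uncalled, with adjusted p from 0.0631 to 0.143. The difference was -0.20 ± 0.12 in the paclitaxel comparison (adjusted p = 0.286). The second TUBA1C probe set, 209251_x_at, stood at -0.21 ± 0.14 in the docetaxel (adjusted p = 0.358) and at -0.094 ± 0.14 in the paclitaxel comparison (adjusted p = 0.722).

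For TUBA1B, probe set 213646_x_at read 9047, 9337 and 9053 in docetaxel-resistant, 10058, 8475 and 10592 in paclitaxel-resistant and 11728, 10549 and 11487 in sensitive cells. The docetaxel-resistant arrays lay below all sensitive ones, and the highest paclitaxel-resistant array lay just above the lowest sensitive array. The differences were -0.28 ± 0.13 for the docetaxel-resistant line (adjusted p = 0.167) and -0.14 ± 0.13 for the paclitaxel-resistant line (adjusted p = 0.528), by limma. Over the 5 probe sets of TUBA1B the differences ran from -0.31 to -0.17 in the docetaxel and from -0.23 to -0.066 in the paclitaxel comparison. Another of them, 212639_x_at, at -0.31 (adjusted p = 0.134 in the docetaxel comparison), was called together with 213646_x_at under median centring, with an offset of 64, and where the spread was modelled robustly with a mean-variance trend. In all 7 probe sets of TUBA1B and TUBA1C, paclitaxel-resistant replicate 3 had the highest value of its group after normalization, though not as deposited in 211750_x_at. These 7 probe sets read 6447 to 12108, while the highest value on any array was between 11741 and 13227, so they sat near the top of the intensity range. Whether saturation compressed their differences was not tested.

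TUBA1A, the alpha-tubulin best known from developing neurons, showed the reverse order of the lines. It read 2427, 2746 and 2363 in docetaxel-resistant, 2376, 1889 and 2121 in paclitaxel-resistant and 2674, 2617 and 2675 in sensitive cells. The paclitaxel-resistant arrays all lay below the sensitive ones, and the docetaxel-resistant arrays overlapped them. The difference was -0.075 ± 0.14 in the docetaxel (adjusted p = 0.777) and -0.28 ± 0.14 in the paclitaxel comparison (adjusted p = 0.196), and -0.21 between the lines (adjusted p = 0.642), none of them called by limma.

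The fall of TUBA4A was also set against the TUBA1 genes within each array, as log2 of TUBA4A minus the mean log2 of the 8 TUBA1 probe sets, a difference whose level depends on the probes and which is read only across arrays. It ran from -5.09 to -4.84 in docetaxel-resistant, from -5.12 to -4.73 in paclitaxel-resistant and from -4.11 to -3.79 in sensitive cells. All resistant arrays lay below the sensitive ones, by -1 on average in the docetaxel-resistant and -1.03 in the paclitaxel-resistant line. These values describe the separation of TUBA4A already given and are no further test of it, and the TUBA1B and TUBA1C probe sets sit near the top of the intensity range. Without between-array normalization the values were -0.85 and -0.93.

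TUBA8, a more diverged alpha-tubulin known from muscle and testis, was near background. It read 20.7, 7.50 and 3.30 in docetaxel-resistant, 11.5, 10.3 and 11.4 in paclitaxel-resistant and 1.34, 45.4 and 11.3 in sensitive cells. Sensitive replicate 2 alone reached 45.4, and the others hold no order. Its difference was -0.35 ± 0.40 in the docetaxel and -0.24 ± 0.40 in the paclitaxel comparison, with intervals from -1.22 to 0.52 and from -1.11 to 0.63 (adjusted p = 0.624 and 0.759 by limma).

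**Figure D3:**
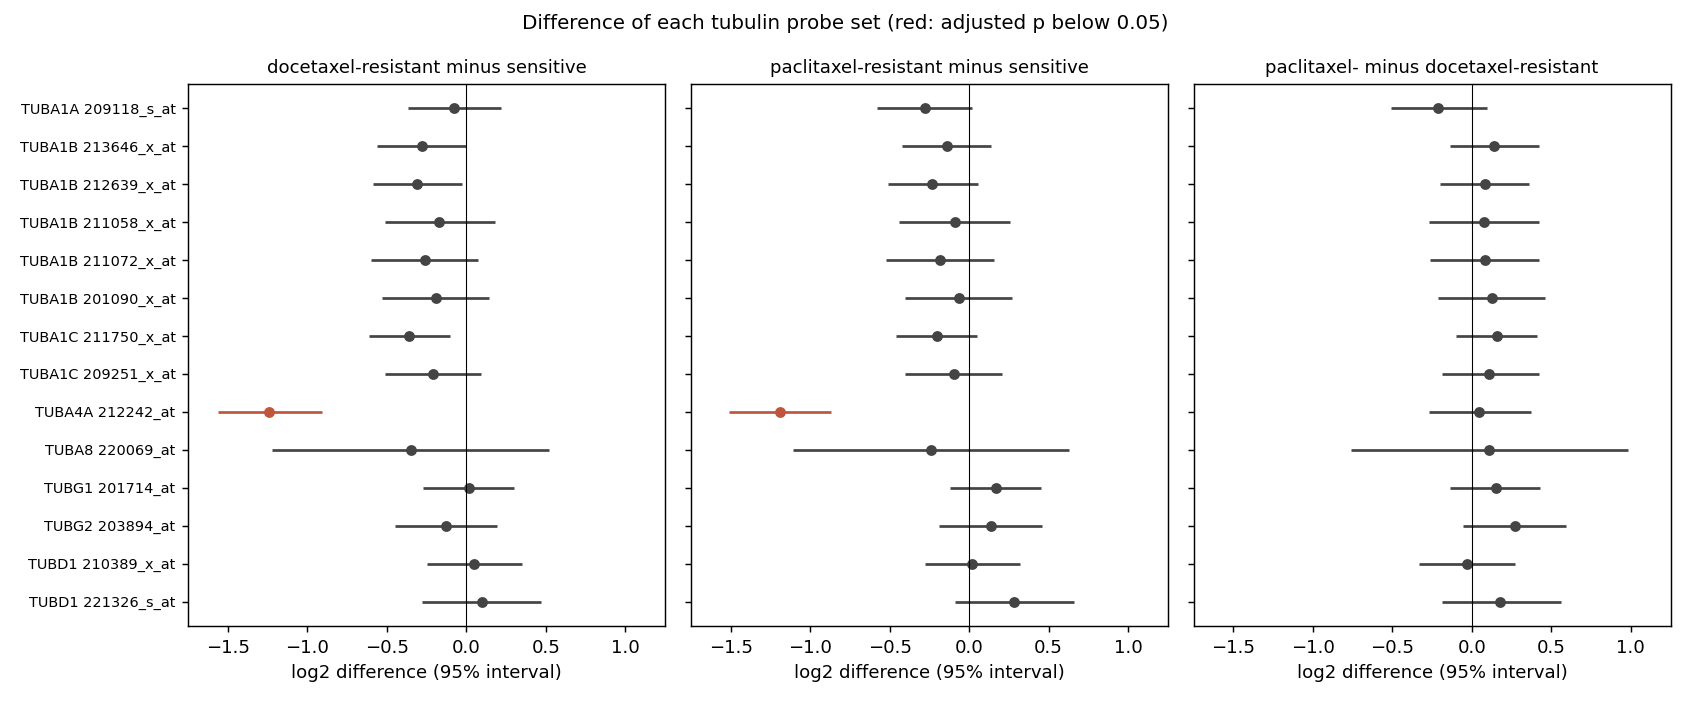
Points are log2 differences and lines are 95% intervals (horizontal axis) of the 14 tubulin probe sets (vertical axis) in the docetaxel comparison (left), the paclitaxel comparison (middle) and between the resistant lines (right). TUBA4A, in red, is called in the first and second panels at -1.24 and -1.19, and no probe set is called in the third.

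TUBG1, the gamma-tubulin of most cells, read 1074, 1171 and 1058 in docetaxel-resistant, 1235, 1055 and 1264 in paclitaxel-resistant and 1156, 893 and 1056 in sensitive cells. The 3 groups overlapped. Its difference was 0.019 ± 0.13 in the docetaxel (interval -0.27 to 0.30, adjusted p = 0.950) and 0.17 ± 0.13 in the paclitaxel comparison (interval -0.12 to 0.45, adjusted p = 0.451), by limma. TUBG2, its neighbour on chromosome 17 and a gamma-tubulin best known from the brain, read 83.7, 70.2 and 64.4 in docetaxel-resistant, 91.7, 80.4 and 80.9 in paclitaxel-resistant and 65.1, 65.7 and 78.4 in sensitive cells. The paclitaxel-resistant arrays of TUBG2 all lay above the sensitive ones, as in 14.9% of all probe sets, with a difference of 0.14 ± 0.15 that was not called (adjusted p = 0.611). In the docetaxel comparison TUBG2 stood at -0.13 ± 0.15 (adjusted p = 0.616). Over the 3 comparisons the 95% intervals of the gamma-tubulins lay between -0.45 and 0.59 on the log2 scale.

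TUBD1, the delta-tubulin gene, also lies on chromosome 17. Its probe set 210389_x_at read 93.4, 94.2 and 99.2 in docetaxel-resistant, 89.0, 75.8 and 91.6 in paclitaxel-resistant and 78.9, 77.8 and 76.5 in sensitive cells. As deposited, the docetaxel-resistant arrays all lay above the sensitive ones, but after quantile normalization the groups overlapped. The difference was 0.048 ± 0.14 in the docetaxel comparison (adjusted p = 0.865), and 0.25 without between-array normalization (adjusted p = 0.21), by limma. The paclitaxel comparison gave 0.018 ± 0.14 (adjusted p = 0.956). The second probe set, 221326_s_at, read 29.9, 26.7 and 32.5 in docetaxel-resistant, 25.6, 37.0 and 41.1 in paclitaxel-resistant and 17.1, 27.8 and 27.9 in sensitive cells. It differed by 0.097 ± 0.17 in the docetaxel comparison and by 0.28 ± 0.17 in the paclitaxel comparison (adjusted p = 0.767 and 0.313).

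The third comparison set the paclitaxel-resistant beside the docetaxel-resistant line. The drugs differ in that the amide of the side chain carries tert-butoxycarbonyl in docetaxel and benzoyl in paclitaxel, and a ring hydroxyl of docetaxel is acetylated in paclitaxel, and the doses differed too, so this compares lines in their own media. None of the 14 probe sets was called by limma and none had an unadjusted p below 0.05, against 1.60% and 12.2% of all probe sets. The lowest adjusted p was 0.537, for TUBG2, at 0.27 ± 0.15 (interval -0.055 to 0.59). Of the 8 probe sets of TUBA1A, TUBA1B and TUBA1C, the differences ran from -0.21 to 0.16. After normalization the arrays of the lines did not overlap in 1 of the 14, TUBA1C 211750_x_at, with higher values in the paclitaxel-resistant line, as in 9.23% of all probe sets. As deposited, they overlapped.

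Tubulins outside the 8 genes were read from lists. All 8 beta-tubulin genes, the partners of alpha-tubulin in the dimer, were measured and none was called in either comparison with sensitive cells. Of all genes 10.4% were called higher and 9.80% lower in the docetaxel and 10.5% higher and 10.4% lower in the paclitaxel comparison. The median of the beta-tubulins was -0.16 for the docetaxel-resistant and 0.096 for the paclitaxel-resistant line, against -0.051 and -0.025 over all genes. Read from the highest-mean probe set of each gene, TUBB6 was lower in both lines at an unadjusted p below 0.05. TUBB2B and TUBB4B were higher in the paclitaxel-resistant line. This was 1 gene of 8 for docetaxel and 3 of 8 for paclitaxel, while 29.5% and 29.8% of all probe sets passed that threshold. These counts leave out further probe sets of the same genes, some with a lower limma adjusted p than TUBB6 (docetaxel 0.169, paclitaxel 0.166). TUBB 212320_at differed by -0.34 ± 0.14 for docetaxel (adjusted p = 0.135), against -0.2 from the TUBB probe set counted. TUBB3 202154_x_at differed by 0.33 ± 0.14 for paclitaxel (adjusted p = 0.132), against 0.16 from the TUBB3 probe set counted. The difference between TUBA4A and the beta-tubulins was not tested. A pair of probe sets is annotated jointly to TUBA3C and TUBA3D, alpha-tubulin genes known from testis, and cannot be given to either gene. Both are of the type _x_at, whose probes can match other transcripts. Whether their readings came from other alpha-tubulin genes was not tested. One, 210527_x_at, fell by 0.55 ± 0.16 in the docetaxel-resistant line (adjusted p = 0.0314) and fell by 0.51 ± 0.16 in the paclitaxel-resistant line (adjusted p = 0.0432), by limma. The other, 216323_x_at, fell by 0.54 ± 0.12 in the docetaxel-resistant line (adjusted p = 0.0104) and stood at -0.35 ± 0.12 in the paclitaxel-resistant line (adjusted p = 0.0698). Whether the calls of this pair hold with single arrays left out or with other processing was not tested. TUBAL3, a further alpha-like gene, was near background at means of 6.34 in docetaxel-resistant, 4.62 in paclitaxel-resistant and 9.39 in sensitive cells.

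New tubulin is folded by the CCT chaperonin, to which prefoldin delivers it, and is then joined into dimers by cofactors named TBCA to TBCE. Of 19 measured genes of this list 8 rose, 1 fell and 10 were not called in each comparison, against 10.4% of all genes called higher and 9.80% lower in the docetaxel and 10.5% higher and 10.4% lower in the paclitaxel comparison. The median difference was 0.40 in the docetaxel-resistant and 0.41 in the paclitaxel-resistant line, against -0.051 and -0.025 over all 11963 genes. The gene that fell was TBCC, the cofactor that triggers release of the finished dimer. TBCC read 96.8, 151 and 138 in docetaxel-resistant, 107, 104 and 101 in paclitaxel-resistant and 273, 248 and 313 in sensitive cells, with all resistant arrays below the sensitive ones. TBCC fell by 1.20 ± 0.15 in the docetaxel-resistant (limma adjusted p = 0.000206) and fell by 1.32 ± 0.15 in the paclitaxel-resistant line (limma adjusted p = 9.63e-05). The prefoldin subunit PFDN1 rose by 1.00 ± 0.13 in the docetaxel-resistant and 0.67 ± 0.13 in the paclitaxel-resistant line. The CCT subunit CCT8 rose by 1.67 ± 0.43 in the docetaxel-resistant and by 1.89 ± 0.43 in the paclitaxel-resistant line, but its lower-level probe set stood at -0.050 and -0.037. CCT5, another subunit, rose by 0.78 ± 0.20 in the docetaxel-resistant and 0.65 ± 0.20 in the paclitaxel-resistant line, and CCT6A rose by 1.29 ± 0.34 in the paclitaxel-resistant line. In the docetaxel comparison CCT5 and CCT8 lost their calls without docetaxel-resistant replicate 3 or sensitive replicates 2 or 3 (adjusted p up to 0.0725 and 0.0827). In the paclitaxel comparison CCT8 kept its call without any 1 array, CCT6A lost it without paclitaxel-resistant replicates 1 or 2 or sensitive replicates 2 or 3 (adjusted p up to 0.0833), and CCT5 lost it without 6 of the 9 arrays in turn (adjusted p up to 0.139). The calls of TBCC and PFDN1 held with any array left out, but the count called higher rested on single arrays. It was between 1 and 8 in the docetaxel and between 2 and 8 in the paclitaxel comparison with 1 array left out, lowest without docetaxel-resistant replicate 3 or sensitive replicate 2 in the docetaxel and without paclitaxel-resistant replicate 1 or sensitive replicate 2 in the paclitaxel comparison. With an offset of 1 the counts were 1 and 2, and without between-array normalization 4 and 2.

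Gamma-tubulin works with the TUBGCP proteins of the ring complex and with the augmin (HAUS) subunits that recruit it to spindle microtubules. Of 13 measured genes 1 rose, 1 fell and 11 were not called in the docetaxel comparison, and 2 rose, 2 fell and 9 were not called in the paclitaxel comparison, shares near those of all genes. TUBGCP2, a core subunit, read 256, 332 and 271 in docetaxel-resistant, 157, 161 and 200 in paclitaxel-resistant and 486, 471 and 393 in sensitive cells, with every resistant array below the sensitive ones. TUBGCP2 fell by 0.74 ± 0.18 in the docetaxel-resistant (limma adjusted p = 0.0127) and fell by 1.31 ± 0.18 in the paclitaxel-resistant line (limma adjusted p = 0.000383). Its docetaxel call ended without docetaxel-resistant replicate 3 (adjusted p = 0.0588), a second probe set agreed in direction and call, and the third, near background, was not called. TUBGCP4, another subunit, rose by 0.53 ± 0.15 in the docetaxel-resistant and 0.52 ± 0.15 in the paclitaxel-resistant line, and lost its call without replicate 2 or 3 of the resistant line compared or of the sensitive cells (adjusted p up to 0.101 and 0.113). In the paclitaxel-resistant line HAUS2 rose by 0.63 ± 0.18 and HAUS7 fell by 0.66 ± 0.17. Both calls ended without paclitaxel-resistant replicates 1 or 2, that of HAUS2 also without sensitive replicate 3 and that of HAUS7 without sensitive replicate 2 (adjusted p up to 0.114 and 0.0772).

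A further list held enzymes that modify alpha-tubulin and the metalloprotease NRDC. Of its 16 measured genes 2 were called in each comparison. Of all genes 10.4% were called higher and 9.80% lower in the docetaxel and 10.5% higher and 10.4% lower in the paclitaxel comparison. In the docetaxel comparison AGTPBP1, which trims glutamates from tubulin tails, rose by 0.81 ± 0.26 (limma adjusted p = 0.0477), and HDAC6, the deacetylase of alpha-tubulin, fell by 0.70 ± 0.17 (limma adjusted p = 0.0136), while 14 of 16 were not called. The call of AGTPBP1 held without docetaxel-resistant replicate 1 or paclitaxel-resistant replicate 1 and ended without any other single array. It also ended without between-array normalization, with an offset of 1 or 64, with only the arrays of the 2 groups compared, and with the replicate block. A second, lower-level probe set of AGTPBP1 stood at 0.074 in the docetaxel comparison (limma adjusted p = 0.796). The call of HDAC6 ended without docetaxel-resistant replicate 3 or sensitive replicates 2 or 3 (adjusted p up to 0.0651). In the paclitaxel comparison NRDC, which is not an established tubulin-modifying enzyme, rose by 1.11 ± 0.26 (limma adjusted p = 0.00983). TTLL1, a tubulin polyglutamylase, rose by 0.51 ± 0.14 (limma adjusted p = 0.0198), again with 14 not called. The call of TTLL1 in that comparison ended without paclitaxel-resistant replicates 2 or 3 or sensitive replicates 1 or 3 (adjusted p up to 0.0698). TTLL1, 1 of 16 (against 0.945% of all genes called higher), also differed between the lines, at means of 86.0 in paclitaxel-resistant and 43.0 in docetaxel-resistant cells (0.86 ± 0.14, limma adjusted p = 0.00908), and that call held with any array left out.

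**Figure D4:**
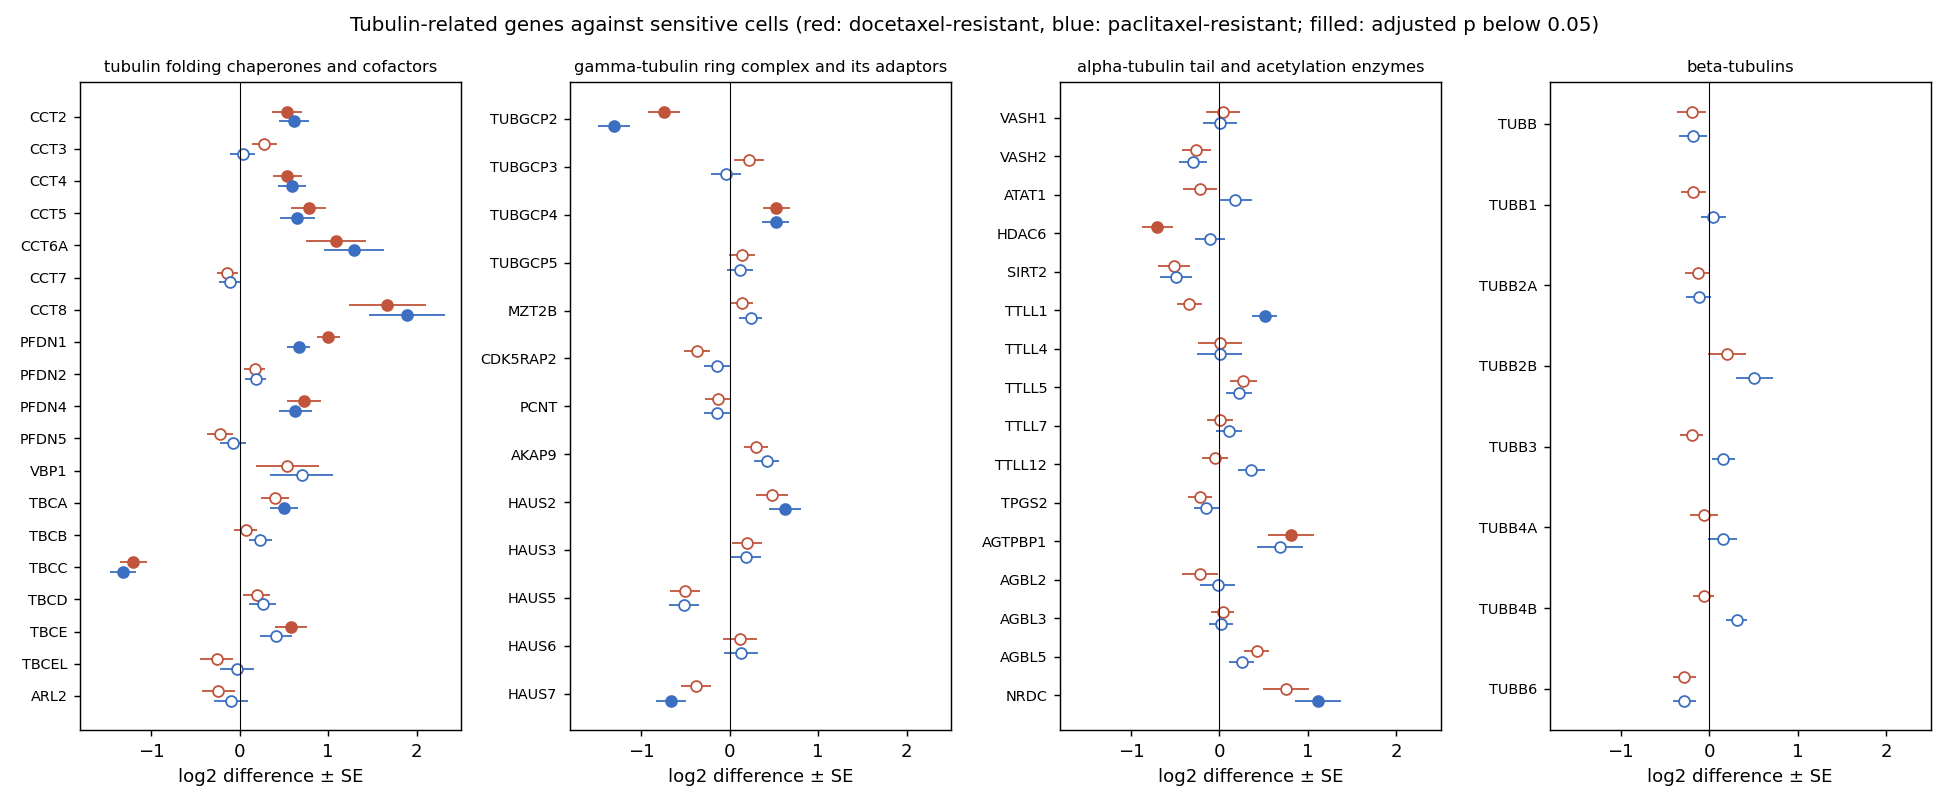
Each panel gives, for 1 list of tubulin-related genes (vertical axis), the log2 difference ± SE (horizontal axis) of the docetaxel-resistant (red) and paclitaxel-resistant (blue) lines from sensitive cells. Filled points are called. In the folding list 8 genes lie to the right and TBCC to the left as called genes in each comparison, and no beta-tubulin is called.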

How the data were processed

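The deposited intensities were 1 value per probe set and array, on a linear scale. PLIER, which combines the probes of a set into 1 value, and Affymetrix Expression Console 1.1.2 are listed in the submitters' processing notes. How the authors corrected background or scaled arrays, and which probe sets counted as detected, is stated by no label, header or note used here. The labels give 5 µg of total RNA per array. The array has 22283 probe sets, 68 of them controls. Of the 22215 for human transcripts, 19065 were annotated to a single gene (19053 with a RefSeq gene identifier), 1043 to several genes and 2107 to no gene. Values became log2(intensity + 16), since the deposited intensities are not logarithmic, and were quantile-normalized, as array medians differed by 0.27 in log2. In R 4.3.3 with limma 3.58.1 a linear model with 3 group means was fitted to all 9 arrays and all human probe sets (6 residual and 5.82 prior degrees of freedom), with two-sided p-values adjusted by Benjamini and Hochberg within a contrast. For lists, the highest-mean probe set of each of 11963 genes was read from this fit.

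All single-gene probe sets of the 8 members were named. From each list, called genes with the smallest p were named, up to 4, and other genes after their values were seen. Members, lists and alternatives were chosen with earlier results of these data known. The limma fit was run on data simulated around the normalized values. That run left out the offset and the quantile normalization, so it says nothing about them. Alternatives covered scaling, offset, filter, moderation, arrays in the fit, replicate block, unit, probe set type and each array left out.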

Additional observations from a re-analysis of the deposited data

How the results depend on the processing

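TUBA4A was called lower in both comparisons with sensitive cells under all 20 alternatives. The count of called tubulin probe sets in the docetaxel comparison, 1 in the report, was 2 without between-array normalization, with probe sets at or above the median level and with 1 row per gene (highest-mean probe set), and 4 with median centring, an offset of 64 and a mean-variance trend and robust spread. In the paclitaxel comparison it was 2 with an offset of 64. In the F test it was 2 with median centring or an offset of 64 and 3 with the trend. The cause was not tested. With the replicate block the counts were 1, 1 and 0 in the docetaxel and paclitaxel comparisons and between the lines, as without it, and TUBA4A stood at -1.24 and -1.19. The block called 3596, 3821 and 214 of all probe sets, against 3922, 4128 and 356, and own-numbered arrays deviated most alike in 1, 2 and 0 of 3. Deviations of same-numbered arrays correlated at -0.40 to 0.29 and no label pairs them, so the numbers are not taken as pairs. Of all probe sets, 2431 were called in the docetaxel comparison without docetaxel-resistant replicate 3. Between the lines 215 were called without between-array normalization, 84 with an offset of 1, and 111 to 218 without single resistant arrays. Of the fits with fewer features tested, 1 row per gene (highest mean) gave 2510, 2579 and 235, and leaving out _x_at and _s_at probe sets 1723, 1838 and 125, in the same order of comparisons. The mean of probe sets per gene gave 2528 in the docetaxel and 2604 in the paclitaxel comparison. The 11108 probe sets at or above the median level gave 3734, 3840 and 416. Median centring moved the median of all probe sets to -0.10 in the docetaxel comparison, and TUBA4A minus that median was -1.15.

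The alternatives for listed genes, STK16 and the within-array difference were chosen after seeing the data. Uncalled differences near 0 changed sign. TUBG1 stood at -0.041 with median centring and TUBG2 at 0.048 without between-array normalization in the docetaxel comparison. TUBA8 stood at 0.078 with an offset of 1 in the paclitaxel comparison. Between the lines TUBA4A stood at -0.069 without between-array normalization and -0.015 with median centring, and the mean of the TUBD1 probe sets at 0.077. With single arrays left out, the docetaxel comparison gave -0.79 to 0.22 for TUBA8, -0.015 to 0.080 for TUBG1, -0.029 to 0.14 for TUBD1 210389_x_at and -0.044 to 0.20 for TUBD1 221326_s_at. The paclitaxel comparison gave -0.25 to 0.001 for TUBA1B 211058_x_at, -0.22 to 0.045 for TUBA1B 201090_x_at, -0.19 to 0.0023 for TUBA1C 209251_x_at, -0.68 to 0.33 for TUBA8 and -0.059 to 0.11 for TUBD1 210389_x_at. Between the lines it was -0.089 to 0.17 for TUBA1B 211058_x_at, -0.049 to 0.23 for 211072_x_at, -0.023 to 0.24 for 201090_x_at, -0.037 to 0.14 for TUBA4A, -0.095 to 0.37 for TUBA8 and -0.096 to 0.018 for TUBD1 210389_x_at. TUBA8 rests on sensitive replicate 2: without it the docetaxel and paclitaxel values are 0.22 and 0.33. The number of arrays and, for TUBA8, the signal over background limit the precision.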
